A study of Solanum lycopersicum with 24 samples.

Results

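FRUITFULL-like genes encode MADS-box transcription factors that promote the change from leaf-making to flower-making growth in many flowering plants. Tomato (Solanum lycopersicum) has a sympodial shoot: the apical meristem ends in an inflorescence, and the next shoot grows on from a bud below it. The genes described here are those whose RNA level differed between slful and wild-type meristems by a modest amount, in the same direction, at every stage sampled. They were chosen on the measured values. A gene was taken if its mean level over the 24 libraries was at least 1 RPKM (reads per kilobase of gene and per mega, M, of mapped reads), if the 3 slful libraries lay all above or all below the 3 WT libraries at each of 4 stages in one direction, and if the genotype means differed by less than 2-fold at every stage. Solyc03g114830, listed as FUL2 and one of the mutated loci, was left out by name. Of 34075 genes in the table, 40 met the rule, 22 higher and 18 lower in slful.

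The slful plants carry the genotype that the deposited legend writes as ful1/ful2/mbp10/mbp20, and the reference plants are WT. Meristems of both were taken at the vegetative stage (VM), at the transition to flowering (TM), as floral meristem with the inflorescence meristem at its flank (FIM), and as the FIM that the first sympodial shoot forms (SFIM). Each of the 8 groups has 3 libraries, and each library pooled 30 to 60 meristems from greenhouse plants. The sources used here give neither the kind of mutation nor the cultivar or the age of the plants, and nothing there says that the 3 samples of a group came from separate plantings, so spread and p-values cover these samples. In pooled meristems, fewer cells of a type and less RNA per cell cannot be told apart.

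The values implied 12.9 to 90.4 M reads per library, of which 11.5 to 81.7 M lay in the listed genes. A gene of the set had between 25 and 6390 reads in the library where it had fewest, with a median of 222. The meristem genes listed as TKN2, WUSCHEL and CLV3 were present in all 24 libraries, at 136 to 248, 5.20 to 40.5 and 2.15 to 42.2 RPKM. One library stood apart from the others: in slful FIM replicate 1, values depended on gene length. A gene of 3000 bases lay 0.89 log2 units below a gene of 600 bases there, relative to the mean of all libraries, while the same difference ran from -0.28 to 0.21 in the other 23 libraries.

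Most of the 40 genes have no annotation in the files. A description was deposited for 3 of them: Solyc01g092950, a MADS-box protein; Solyc03g111970, cytochrome P450 71A6; and Solyc04g008400, a G-type lectin S-receptor-like serine/threonine-protein kinase. The other 37 are given by their ID, with no role. Descriptions were deposited for 435 genes, those on the authors' own lists of changed genes, so a member is described because the authors called it at some stage.

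Complete separation of the 6 libraries was common at 1 stage and rare at 4. Among the 16562 genes with a mean of at least 1 RPKM, the slful libraries lay above the WT libraries in 10.9% of genes at VM, 5.65% at TM, 7.25% at FIM and 11.9% at SFIM. They lay below in 6.1% at VM, 9.89% at TM, 10.2% at FIM and 6.68% at SFIM. At all 4 stages at once, 45 genes (0.272%) lay above and 25 (0.151%) lay below. Of these, 23 and 6 reached 2-fold at some stage. Solyc03g114830, among those below, met every limit and was left out by name. The 22 higher and 18 lower genes described here are 0.133% and 0.109% of the expressed genes, shares that the rule fixes and that carry no test. No gene with a mean under 1 RPKM met the rest of the rule.

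A larger set shared the direction without the separation. The slful mean was above the WT mean at all 4 stages in 1553 genes. Of these, 112 had separate libraries at 3 stages, 292 at 2, 503 at 1 and 601 at none. The slful mean was below at all 4 stages in 1823 genes, with 47, 243, 584 and 924 separate at 3, 2, 1 and no stages.

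The limits of the rule passed close to named genes. By mean level, Solyc04g008400 (1.096 RPKM) and Solyc02g080080 (1.24 RPKM) lay just inside. By fold, Solyc06g065870, higher in slful by 1.97-fold at VM, and Solyc04g008400, lower by 1.97-fold at SFIM, lay just inside. Just outside lay Solyc02g090730, lower by 2.02-fold at TM, and Solyc01g006390, described as a pistil extensin like protein, higher by 2.12-fold at SFIM.

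The ratio of the slful mean to the WT mean was used by the rule, so its size is given as a description. Over the 4 stages, the geometric mean ratio of the 22 higher genes had a median of 1.39 and ran from 1.08 to 1.70. That of the 18 lower genes had a median of 0.813 and ran from 0.558 to 0.930. Differences on the higher side were larger: 9 of 22 higher genes and 1 of 18 lower genes reached a geometric mean of 1.5-fold, and 2 and 7 stayed under 1.2-fold. At every single stage under 1.5-fold were 7 higher and 15 lower genes. The lower genes were on average the more abundant ones, with a median level of 26.6 RPKM against 5.82 RPKM in the higher genes, and 12.7 RPKM over all expressed genes. Their SD of log2 values within groups had a median of 0.13, against 0.17 in the higher genes and 0.16 over all expressed genes.

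**Figure D1:**
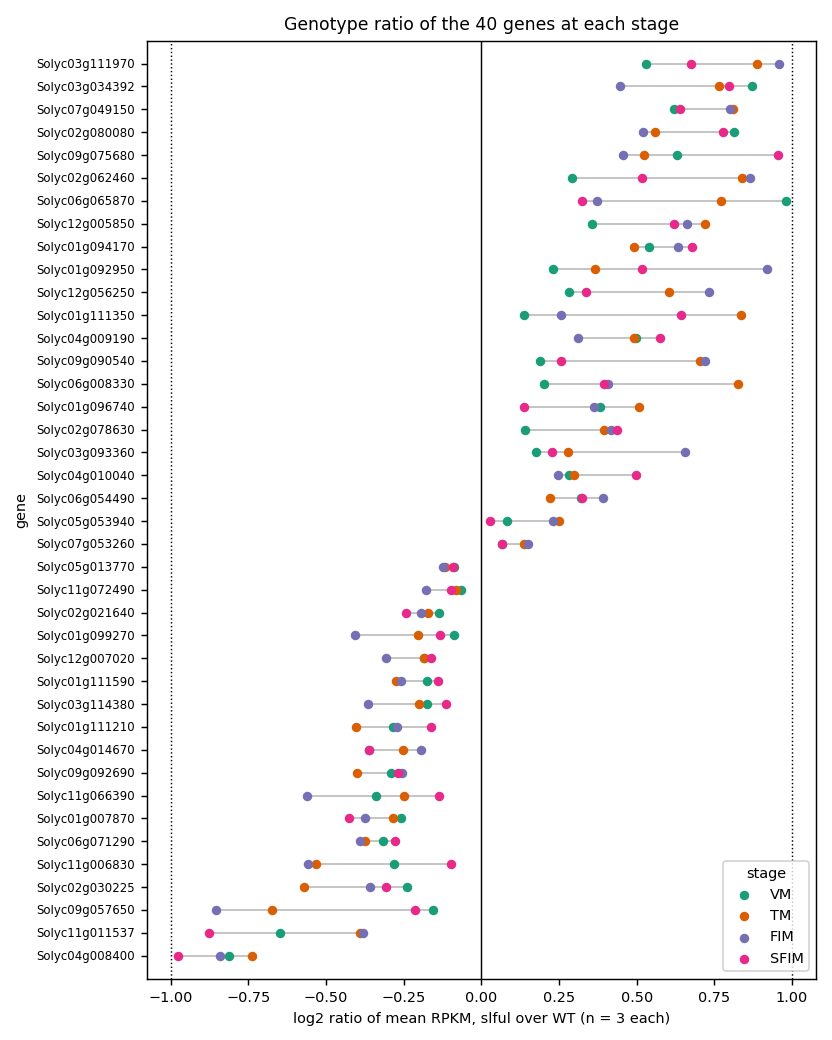
Each line is 1 of the 40 genes and each point is the log2 ratio of mean RPKM, slful over WT (n = 3 each), at 1 stage; dotted lines mark 2-fold. Points of a gene lie on one side of 0, as the rule requires, and the geometric mean ratio runs from 1.08 to 1.70 for the 22 higher genes and from 0.558 to 0.930 for the 18 lower genes.

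The stage with the widest difference was not the same for all genes. Among the higher genes the largest fold fell at VM for 3, at TM for 6, at FIM for 8 and at SFIM for 5. Among the lower genes it fell at VM for 1, at TM for 4, at FIM for 9 and at SFIM for 4. The smallest fold fell at VM for 12 higher genes and at VM or SFIM for 7 lower genes each. The median ratio of the higher genes was 1.24 at VM, 1.46 at TM, 1.37 at FIM and 1.42 at SFIM. That of the lower genes was 0.842 at VM, 0.824 at TM, 0.778 at FIM and 0.878 at SFIM. The library that stands apart is 1 of the 3 slful FIM libraries, and its part is given below.

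Solyc01g092950 was the most abundant of the described genes. It is listed as STM3, and MADS-box proteins of its SOC1 family promote flowering in Arabidopsis. At VM it had 152, 165 and 166 RPKM in slful, against 135, 133 and 144 RPKM in WT, and at TM 136, 161 and 182 RPKM in slful, against 126, 121 and 124 RPKM in WT. At FIM it had 118, 65.0 and 62.6 RPKM in slful, against 39.0, 49.5 and 41.2 RPKM in WT, and at SFIM 63.3, 61.5 and 57.3 RPKM in slful, against 37.4, 44.5 and 45.4 RPKM in WT. Its level was highest in the first 2 stages in both genotypes, and the ratio was widest at FIM, where the first slful library had nearly double the level of the others. The ratio was 1.17 at VM, 1.29 at TM, 1.89 at FIM and 1.43 at SFIM. Without slful FIM replicate 1 the FIM ratio was 1.47. On the log2(RPKM + 0.5) scale, the differences were 0.23, 0.35, 0.86 and 0.51 in stage order, each with an SE of 0.16. The authors' deposited table gives this gene at FIM alone, with a fold of 2.004 and a false discovery rate of 0.00246.

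Solyc03g111970, a cytochrome P450 and so a member of a large family of oxidising enzymes, had the largest geometric mean ratio of the 40, 1.70. It had 1.68, 2.62 and 2.35 RPKM in slful at VM, against 1.58, 1.62 and 1.41 RPKM in WT. At TM it had 3.87, 3.998 and 3.91 RPKM in slful, against 2.19, 2.49 and 1.69 RPKM in WT. At FIM the slful libraries had 3.07, 3.76 and 3.89 RPKM, against 2.25, 1.70 and 1.57 RPKM in WT. The groups were far apart at TM and FIM, with ratios of 1.85 and 1.94, and nearly touched at VM and SFIM. At SFIM it had 4.78, 4.88 and 4.16 RPKM in slful, against 4.04, 2.41 and 2.19 RPKM in WT, so that 1 WT library came within 2.84% of the lowest slful library. The authors' deposited table gives it at FIM, with a fold of 2.05 and a false discovery rate of 0.0121.

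Solyc04g008400, a receptor-like kinase with a lectin domain, was the gene with the strongest reduction and the lowest level. It had 1.004, 1.27 and 1.18 RPKM in slful at VM, against 1.88, 2.39 and 1.80 RPKM in WT. At TM it had 1.07, 0.390 and 0.824 RPKM in slful, against 1.19, 1.16 and 1.47 RPKM in WT. The TM groups came within 8.36% of each other, and the other stages were wider apart. At FIM it had 0.414, 0.743 and 0.716 RPKM in slful, against 1.25, 1.07 and 1.04 RPKM in WT. At SFIM it had 0.634, 0.592 and 0.611 RPKM in slful, against 1.096, 1.22 and 1.30 RPKM in WT. The ratio stayed between 0.508 and 0.599 at the 4 stages, so its difference was of similar size throughout. The authors' deposited table gives it at SFIM, with a signed fold of -2.01 and a false discovery rate of 0.00018. All 3 described genes are thus over 2-fold at 1 stage in the authors' deposited table, and under 2-fold by the ratio of RPKM means.

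**Figure D2:**
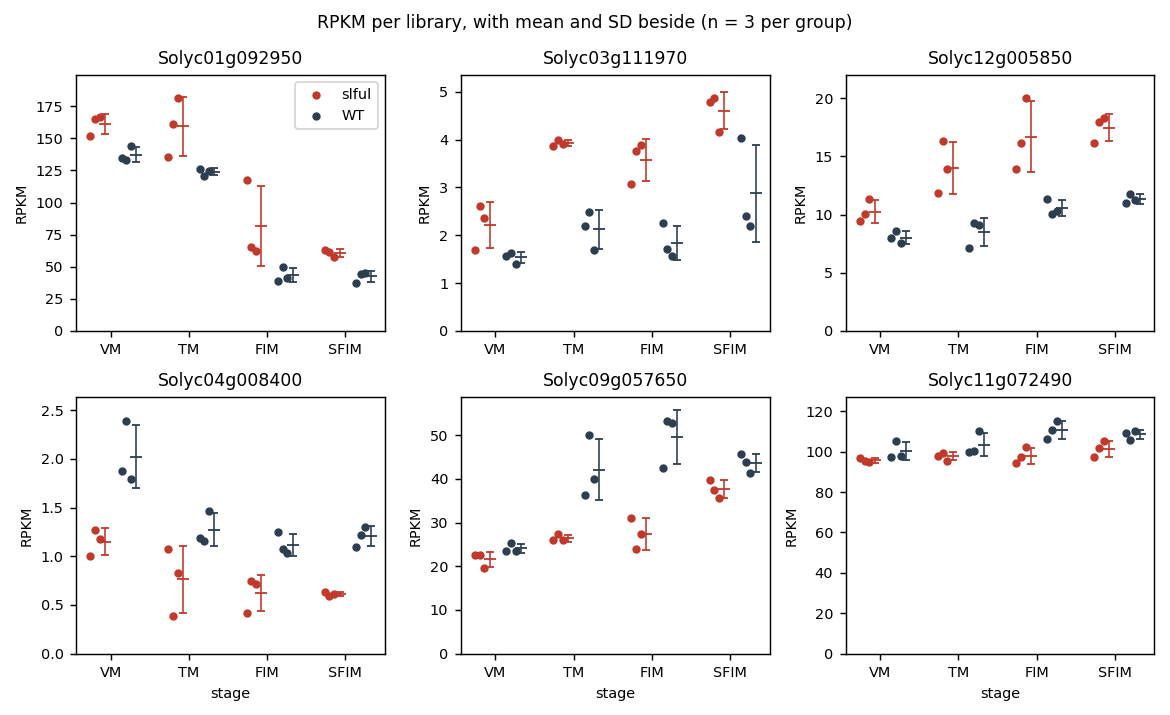
RPKM of 6 of the 40 genes in each library (points), with the group mean and SD beside them (n = 3); slful is left of WT at each stage. Solyc01g092950, Solyc03g111970 and Solyc12g005850 are higher in slful and the 3 genes of the lower row are lower, down to the close values of Solyc11g072490.

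Other higher genes differed in how much the ratio varied over the stages. Solyc12g005850 had 9.43, 10.04 and 11.3 RPKM in slful at VM, against 7.94, 8.58 and 7.51 RPKM in WT, and at SFIM 16.1, 17.9 and 18.3 RPKM in slful, against 11.0, 11.8 and 11.3 RPKM in WT. In between, it averaged 14.0 ± 2.24 RPKM in slful and 8.51 ± 1.21 RPKM in WT at TM, and 16.7 ± 3.09 RPKM in slful and 10.6 ± 0.687 RPKM in WT at FIM (SD, n = 3 each). Its ratio was smallest at VM, 1.28, and 1.54 to 1.65 at the other stages. Solyc02g062460, at a higher level, also had its smallest ratio at VM, 1.22. Its ratio was 1.79 at TM, 1.82 at FIM and 1.43 at SFIM. It had 42.5, 43.9 and 42.8 RPKM in slful at VM, against 34.2, 32.8 and 38.6 RPKM in WT. At TM it had 89.6, 55.1 and 52.5 RPKM in slful, against 36.6, 42.1 and 31.5 RPKM in WT. One slful TM library was far above the others, and all WT libraries were lower than the lowest slful one. At FIM it had 78.3, 47.3 and 68.7 RPKM in slful, against 32.9, 39.8 and 34.0 RPKM in WT, and at SFIM 71.9, 67.1 and 73.6 RPKM in slful, against 45.7, 55.2 and 47.7 RPKM in WT.

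Solyc06g065870 ran the other way, with ratios of 1.97 at VM, 1.71 at TM, 1.30 at FIM and 1.25 at SFIM. It had 3.36, 3.98 and 4.40 RPKM in slful at VM, against 1.88, 2.03 and 2.04 RPKM in WT. At FIM it had 5.81, 6.41 and 5.27 RPKM in slful, against 4.17, 4.16 and 5.17 RPKM in WT. At VM the groups were far apart, and at FIM 1 WT library came within 1.91% of the lowest slful library. Solyc09g075680 averaged 3.81 ± 0.548 RPKM in slful and 1.97 ± 0.717 RPKM in WT at SFIM (SD, n = 3 each), a ratio of 1.94, with ratios of 1.37 to 1.55 at the other stages. Solyc01g111350 was nearly level at VM, where it had 3.94, 4.15 and 3.93 RPKM in slful, against 3.74, 3.75 and 3.43 RPKM in WT. At TM its ratio was 1.79, with 5.55, 5.48 and 3.70 RPKM in slful, against 3.26, 2.53 and 2.45 RPKM in WT.

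In a few higher genes the ratio hardly moved. Solyc01g094170 had ratios of 1.45, 1.41, 1.55 and 1.60 in stage order. At VM it had 7.67, 7.44 and 9.18 RPKM in slful, against 5.20, 6.12 and 5.40 RPKM in WT, and at SFIM 4.41, 3.58 and 3.53 RPKM in slful, against 2.72, 2.15 and 2.33 RPKM in WT. Its level at SFIM was about 2-fold under that at VM in both genotypes, while the ratio between them stayed in place. Solyc07g049150 had ratios of 1.54 to 1.75, with 4.32, 4.12 and 4.34 RPKM in slful at SFIM, against 2.18, 3.30 and 2.72 RPKM in WT. Solyc06g054490 had ratios of 1.16 to 1.31, with 24.2, 23.9 and 23.6 RPKM in slful at VM, against 19.6, 18.5 and 19.3 RPKM in WT. The VM groups of this gene were tight, and at SFIM 1 WT library (9.46 RPKM) came within 1.43% of the lowest slful library (9.59 RPKM).

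Solyc07g053260, the most abundant of the 40, had the smallest geometric mean ratio on the higher side, 1.08. It averaged 275 ± 3.66 RPKM in slful and 263 ± 7.78 RPKM in WT at VM, and 297 ± 14.1 RPKM in slful and 267 ± 10.9 RPKM in WT at FIM (SD, n = 3 each). The lowest slful VM library (272 RPKM) and the highest WT VM library (271 RPKM) were 0.142% apart. At TM, where the means were further apart, it averaged 306 ± 6.96 RPKM in slful and 278 ± 13.4 RPKM in WT (SD, n = 3 each).

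Among the lower genes, Solyc09g057650 varied most over the stages. At VM it had 22.7, 22.5 and 19.7 RPKM in slful, against 23.6, 25.3 and 23.4 RPKM in WT. At TM it had 25.9, 27.4 and 26.004 RPKM in slful, against 36.4, 50.0 and 40.1 RPKM in WT. At FIM it had 31.1, 23.9 and 27.3 RPKM in slful, against 42.5, 53.4 and 52.9 RPKM in WT. The groups lay close at VM and far apart at TM and FIM, with ratios of 0.898, 0.627 and 0.553. At SFIM it had 39.7, 37.5 and 35.7 RPKM in slful, against 45.7, 43.8 and 41.4 RPKM in WT, a ratio of 0.862.

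The steadiest lower genes also had the smallest differences. Solyc05g013770 had ratios of 0.918 to 0.941 and averaged 24.9 ± 0.832 RPKM in slful and 26.4 ± 1.0004 RPKM in WT at VM, and 24.5 ± 0.864 RPKM in slful and 26.1 ± 0.274 RPKM in WT at SFIM (SD, n = 3 each). Solyc11g072490 had ratios of 0.884 to 0.955. At TM it had 97.8, 99.55 and 95.6 RPKM in slful, against 99.62, 101 and 110 RPKM in WT. The facing libraries of that stage were 0.0737% apart, the closest of the 40 genes. Solyc02g021640 averaged 39.5 ± 2.80 RPKM in slful and 46.7 ± 1.69 RPKM in WT at SFIM (SD, n = 3 each), a ratio of 0.846, and its ratio was 0.873 to 0.910 at the other stages.

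Solyc11g011537, singled out after its values were seen, was the lower gene with the second largest geometric mean difference, 0.672. It had 3.10, 2.27 and 3.32 RPKM in slful at SFIM, against 5.17, 5.47 and 5.32 RPKM in WT, and at VM 3.25, 4.22 and 3.40 RPKM in slful, against 6.02, 6.09 and 4.92 RPKM in WT. Its ratio was 0.764 at TM and 0.768 at FIM. Solyc03g034392, likewise singled out, had the widest gap in percent of the 40 genes when each is taken at its narrowest stage. At VM it had 5.32, 3.17 and 3.88 RPKM in slful, against 1.84, 2.23 and 2.69 RPKM in WT. The narrowest stage was FIM for this gene, where the lowest slful library exceeded the highest WT library by 17.0%. These 2 libraries, of unlike depth, had 74 reads in slful and 82 reads in WT. Their gap, picked as the narrowest of this gene, was 0.98 times the counting (Poisson) error of the reads. This figure is a description and no test.

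The separation of the groups rested on narrow gaps in most of the genes. At its narrowest stage, the gap between the facing libraries was under 1% of the lower value in 12 of 40 genes, 5 higher and 7 lower. It was under 5% in 31 and at least 10% in 3, all of them higher genes. Set against the counting error of the reads behind those 2 libraries, the narrowest gap was under 1 counting error in 37 of 40 genes, 19 of 22 higher and 18 of 18 lower. It reached 2 counting errors in 2 genes, both higher. In Solyc02g062460 the facing VM libraries had 1932 reads (42.5 RPKM) in slful and 1696 reads (38.6 RPKM) in WT, a gap of 2.91 counting errors. In Solyc01g092950 the gap was 2.23 counting errors. These figures cover counting error only. Each gap was picked as the smallest over the stages, between the nearest libraries, on the values that the rule itself used. A small gap is therefore largely fixed by how it was picked. The figures in counting errors describe the gaps and are no test of a difference between genotypes.

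**Figure D3:**
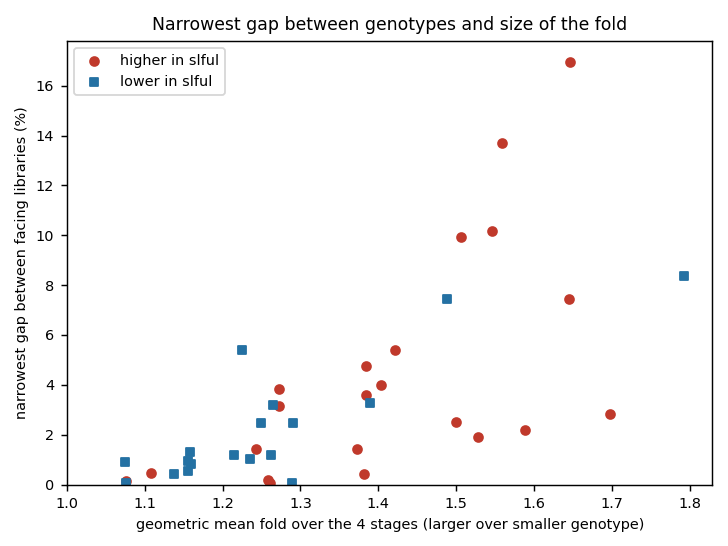
For each of the 40 genes, the x axis gives the geometric mean fold over the 4 stages and the y axis the narrowest gap between the nearest slful and WT libraries, in percent. Most points lie under 5%, 12 lie under 1%, and the 3 at or over 10% are higher in slful.

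The slful FIM library that stands apart was often the extreme one. It was the slful FIM library farthest from WT for 12 of 22 higher and for 12 of 18 lower genes. Without it, the median FIM ratio was 1.32 in place of 1.37 for the higher genes and 0.839 in place of 0.778 for the lower genes. The side of each ratio cannot change in this step, since the rule requires all 3 slful FIM libraries to lie on one side of WT. In Solyc09g090540, which had 6.91, 3.11 and 2.83 RPKM in slful FIM libraries, against 2.72, 2.63 and 2.44 RPKM in WT, the ratio was 1.65 with it and 1.14 without it. In Solyc03g114380, which had 14.1, 30.6 and 31.5 RPKM in slful, against 33.2, 31.8 and 33.2 RPKM in WT, the first slful library alone was far below. Both genes were singled out after their values were seen. In Solyc09g057650 the ratio was 0.553 with it and 0.516 without it, so that library was not the low one there. The higher genes had a median length of 1285 bases and the lower genes 1819 bases, against 1512 bases over all expressed genes. The part of gene length in the choice of genes was not tested. When the rule was applied without this library, 25 genes were higher, 21 of them among the 22, and 19 were lower, including all 18. Leaving out a library cannot undo a separation, so a gene can leave here only through its mean level or fold, and the shared counts are no sign of stability. The higher gene lost was Solyc03g111970, whose FIM ratio became 2.08.

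**Figure D4:**
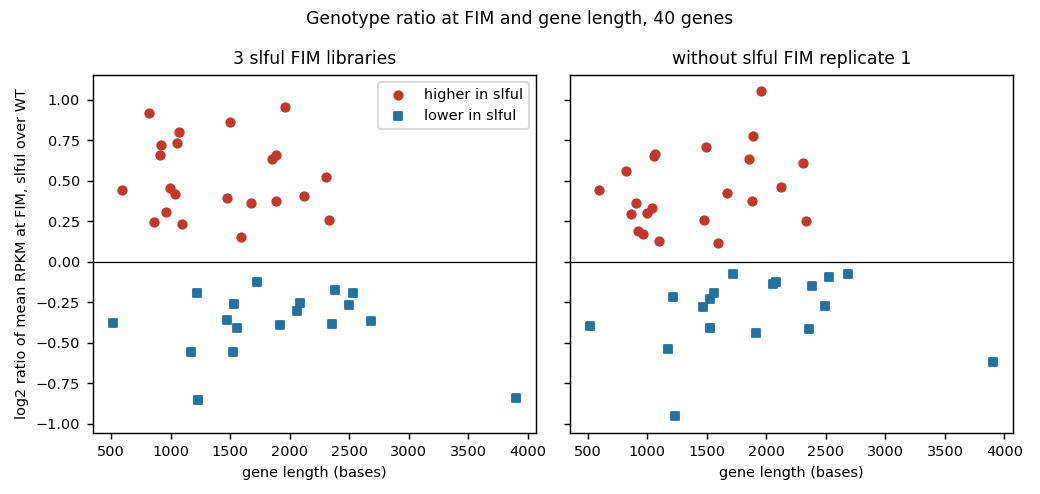
Log2 ratio of mean RPKM at FIM, slful over WT, against gene length in bases for the 40 genes, with the 3 slful FIM libraries (left) and without slful FIM replicate 1 (right). Without it the median ratio is 1.32 for higher genes and 0.839 for lower genes; the rule fixes the side of 0.

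The set also depended on how libraries were scaled. With trimmed-mean (TMM) scaling, with upper-quartile scaling and with the length trend of each library removed, 16 of the 22 higher genes met the rule each time. Of the 18 lower genes, 10, 10 and 11 did. Under all 3 scalings 21 of 40 genes were kept, 14 higher and 7 lower, and 8 were kept under none. Those 8 were Solyc03g111970, Solyc09g090540, Solyc05g053940, Solyc07g053260, Solyc05g013770, Solyc11g072490, Solyc01g111210 and Solyc06g071290. Solyc03g111970 left each time for a fold of 2 or more, Solyc01g092950 left for its fold with TMM and upper-quartile scaling, and Solyc04g008400 with TMM. The other losses came from overlapping libraries. The group means kept their direction at all 4 stages in all 40 genes under these scalings, except Solyc05g053940 with the length trend removed. The rule had set this direction on the same libraries in RPKM, so keeping it is no independent sign of a difference.

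Stage differences, averaged over the genotypes, were not used by the rule and were tested with limma on log2(RPKM + 0.5) over 18786 genes, with Benjamini-Hochberg adjustment and a threshold of 0.05. The 2 comparisons each set a reproductive stage against an earlier one, FIM against TM and SFIM against VM. Between FIM and TM, 6 of the 40 genes rose and 10 fell, 40%, against 28.3% of all genes tested (11.7% higher and 16.5% lower). Between SFIM and VM, 10 rose and 11 fell, 52.5%, against 45.7% of all genes tested (18.6% higher and 27.2% lower). The median change of the 40 genes was 0.00 in both, against -0.04 and -0.06 over all genes tested. By genotype direction, between FIM and TM the higher genes held 5 that rose and 6 that fell, and the lower genes 1 and 4. Between SFIM and VM the higher genes held 6 that rose and 7 that fell, and the lower genes 4 each way. A gene higher in slful was thus not always one that rose with development. Changes were called in both comparisons for 10 genes and in neither for 13.

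Solyc01g092950 fell most in both comparisons. Its mean over both genotypes was 62.5 RPKM at FIM, against 142 RPKM at TM, a log2 change of -1.26 (SE 0.11, limma adjusted p = 1.04e-07). It was 51.6 RPKM at SFIM, against 149 RPKM at VM, a log2 change of -1.54 (SE 0.11, limma adjusted p = 5.81e-10). Its stage difference was larger than its difference between genotypes at any stage, and in slful it remained above WT on both sides of the fall.

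Another 3 higher genes fell in both comparisons among the 4 largest falls. Solyc06g054490 averaged 8.85 RPKM at FIM, against 13.8 RPKM at TM (log2 change -0.63, SE 0.08, limma adjusted p = 9.26e-06), and 9.57 RPKM at SFIM, against 21.5 RPKM at VM (log2 change -1.13, SE 0.08, limma adjusted p = 3.74e-10). Solyc01g094170 changed by -0.72 between FIM and TM (SE 0.11, limma adjusted p = 4.86e-05) and by -1.03 between SFIM and VM (SE 0.11, limma adjusted p = 1.07e-07). Solyc04g010040 changed by -0.59 between FIM and TM (SE 0.09, limma adjusted p = 6.14e-05) and by -0.58 between SFIM and VM (SE 0.09, limma adjusted p = 2.36e-05). All 4 genes are higher in slful. Whether the stage change itself differed between genotypes was not tested, since the rule used the genotype contrasts.

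The 4 largest rises between FIM and TM were in higher genes too. Solyc09g075680 averaged 3.28 RPKM at FIM, against 1.99 RPKM at TM (log2 change 0.60, SE 0.13, limma adjusted p = 0.00158). Solyc01g111350 changed by 0.53 (SE 0.10, limma adjusted p = 0.000344) and Solyc06g065870 by 0.50 (SE 0.09, limma adjusted p = 0.000277). Solyc07g049150 averaged 2.35 RPKM at FIM, against 1.53 RPKM at TM (log2 change 0.50, SE 0.14, limma adjusted p = 0.0119). This last call was lost when each group had its own variance weight (adjusted p = 0.0764) and when libraries of the 2 stages alone were fitted (adjusted p = 0.0563).

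Between SFIM and VM the largest rise was in a lower gene, Solyc09g057650, which averaged 40.7 RPKM at SFIM, against 22.9 RPKM at VM (log2 change 0.82, SE 0.08, limma adjusted p = 2.2e-08). Solyc03g111970, the cytochrome P450, averaged 3.74 RPKM at SFIM, against 1.88 RPKM at VM (log2 change 0.81, SE 0.12, limma adjusted p = 2.06e-05). Solyc12g005850 changed by 0.61 (SE 0.09, limma adjusted p = 1.01e-05) and Solyc02g062460 by 0.60 (SE 0.12, limma adjusted p = 0.00039). The lectin receptor-like kinase gene Solyc04g008400 fell between these stages, to 0.909 RPKM at SFIM, against 1.59 RPKM at VM (log2 change -0.56, SE 0.12, limma adjusted p = 0.000724).

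**Figure D5:**
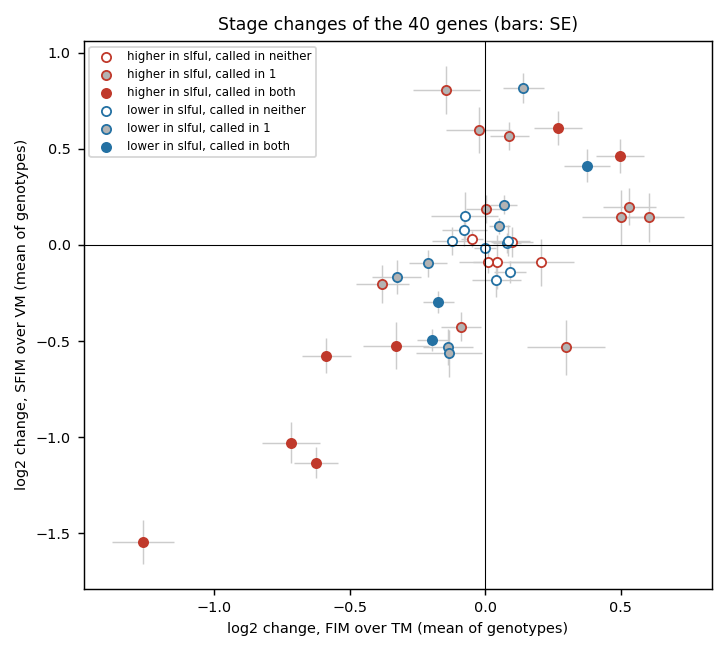
Log2 change between FIM and TM (x axis) and between SFIM and VM (y axis), averaged over genotypes, for the 40 genes, with SE bars; fill shows in how many of the 2 comparisons limma called the gene. The point at -1.26 and -1.54 is Solyc01g092950, and genes of both genotype directions lie on both sides of 0.

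The genes differed in when they were most expressed. The mean over genotypes was highest at VM for 12 genes, at TM for 9, at FIM for 6 and at SFIM for 13. The deposited values of TM and FIM share an export format, and so do those of VM and SFIM. Across these pairs, a stage difference and a difference in processing cannot be told apart. For that reason only FIM against TM and SFIM against VM were tested. In 23 of 40 genes the fold between the highest and lowest stage exceeded the geometric mean fold between genotypes. This sets the widest stage difference against an average that the rule keeps under 2-fold, so the count favours the stages. In Solyc05g013770 the stage means were within 1.02-fold of each other (25.3 to 25.7 RPKM), so its genotype difference, though small, was the larger of the 2.

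The mutated loci themselves were not among the 40, though FUL2 met every limit of the rule and was left out by name. Averaged over stages, limma called 454 genes (2.42%) higher and 209 (1.11%) lower in slful than in WT. Of the 4 loci listed as FRUITFULL-like, FUL1 was lower in slful, with a log2 difference of -1.01 (SE 0.08, limma adjusted p = 9.67e-08) and FUL2 had one of -0.63 (SE 0.06, limma adjusted p = 1.92e-06). MBP20 was higher, with 0.71 (SE 0.07, limma adjusted p = 8.17e-07), and MBP10, with a change of 0.00, did not pass. MBP10 ran from 0 to 2.56 RPKM, and its average hides unlike stages. Its ratio was 1.09 at TM, 0.66 at FIM and 1.44 at SFIM, with no ratio at VM, where WT had 0. FUL1 libraries overlapped at VM and its FIM ratio was 0.364, while MBP20 was 2.61-fold higher at VM, so neither met the rule. Of 10 genes listed for flowering and inflorescence, those listed as TM3 (log2 difference 1.26) and MC (0.62) were called higher in that comparison, and 7 did not pass. The remaining one, STM3 (0.49), was chosen on this contrast as 1 of the 40, so its call is no test. Lists made from description words can hold only genes the authors listed as changed, and are no independent evidence of a direction. The transcription factor list (13 rose and 4 fell of 31 tested), the kinase and receptor list (4 and 1 of 8) and the secondary metabolism list (4 and 1 of 11) each held 1 of the 40, the described genes above, whose own call is in these counts and is no test. The hormone, cell wall, ribosome, chaperone, protein turnover, chromatin, RNA processing, cell cycle, transport, chloroplast, mitochondria, defence and lipid lists held none. The 37 genes without a description could not fall in any word list, so an empty list says nothing about what they encode.

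By the chromosome number in their IDs, the 40 genes lay on 10 of 12 chromosomes, with none on 8 or 10. Chromosome 1 held 4 higher and 4 lower genes and 12.9% of expressed genes. Chromosome 11 held 4 lower genes and no higher one, with 6.71% of expressed genes. Neighbours did not share a direction throughout: Solyc01g111350, higher in slful, has 13 listed genes between it and Solyc01g111210 and 20 between it and Solyc01g111590, both lower. Solyc01g092950 and Solyc01g094170, both higher, have 22 listed genes between them. On the chromosomes of the mutated loci, Solyc03g114380 (lower) has 43 listed genes between it and FUL2, and Solyc06g071290 (lower) has 83 between it and FUL1. The nearest higher genes there were Solyc03g111970, with 289 between it and FUL2, and Solyc06g065870, with 257 between it and FUL1. On chromosome 2 the nearest genes were higher ones, Solyc02g062460 (236 between it and MBP10) and Solyc02g080080 (919 between it and MBP20). Whether linkage to the mutated loci plays a part was not tested.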

How the data were processed

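The authors deposited expression values in RPKM, per the file headers' legend, for 34075 genes in 24 libraries. Aligner, genome build and strandedness are not given in the sources used here. Sheets deposited by the authors, 1 per stage, hold their log2 fold changes, signed folds and p-values with false discovery rates for genes past their limits, and descriptions for 435 genes. No ID matched the reference table held (assembly SLM_r2.1), so symbols come from a hand-made list and no sequence or coordinate is printed.

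The members and gene lists were chosen with earlier results of these data known. Groups follow the labels. Ratios are of group mean RPKM. Stage and genotype contrasts were fitted with limma 3.58.1 (R 4.3.3) on log2(RPKM + 0.5), a scale that makes changes of low genes look smaller. The fit held 18786 genes reaching 0.5 RPKM in 3 or more libraries, as 8 group means with a variance trend and 2-sided tests adjusted by Benjamini-Hochberg. The planned count test was not run, because the deposited unit is RPKM. Whole reads were recovered from the RPKM steps for 25568 of 25568 genes above 0 (100%, within 0.05 reads) and used for depth, gene length and voom, an alternative chosen after seeing the data. Counting errors use the Poisson error of the reads. The fits were tested on simulated data. Genes named are members with a description or in a list, the 3 per direction whose stage ratios lie closest together, the 4 largest called changes each way per stage comparison, and the genes at each limit; others are marked as singled out. Alternatives were other minimum levels, fold limits, scalings, pseudocounts, filters, variance weights, replicate blocks and leaving out each library.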

Additional observations from a re-analysis of the deposited data

How the results depend on the processing

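Counts by the rule depended on its limits. A minimum of 5 RPKM left 12 higher genes, a limit of 1.5-fold left 7, and no fold limit gave 45. Leaving out each library in turn gave 21 to 32 higher and 17 to 22 lower genes. A separation cannot be undone in this step, so a gene can leave only through its mean level or fold. These ranges are therefore no sign of stability. For the stage comparisons among the 40 genes, leaving out each library gave 5 to 7 rises and 8 to 11 falls between FIM and TM, and 8 to 11 rises and 11 to 15 falls between SFIM and VM. With libraries of the 2 stages alone, 5 genes fell between FIM and TM, and with a variance weight per group 17 fell between SFIM and VM; the cause was not tested. With the length trend removed, 8 rose and 8 fell between FIM and TM, where 6 and 10 did in RPKM. Over all genes tested, the split between FIM and TM was 2574 higher and 2395 lower with voom, against 2205 and 3103, and that between SFIM and VM was 4915 and 4752 with the length trend removed, against 3486 and 5106. Of 16 stage changes named with a test as the largest, 15 stayed past the threshold under all 34 alternatives, Solyc07g049150 being the exception, and 0 reversed. Many of these alternatives could not reverse a change. Leaving out a library of a stage outside the comparison left the log2 change as it was. So did other filters, the replicate block and a variance weight per group.

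For slful versus WT averaged over stages, leaving out each library gave 334 to 663 higher and 136 to 567 lower genes. The high counts of 663 and 567 came without slful FIM replicate 3. The lower count was 136 without WT FIM replicate 3 or slful VM replicate 2, 138 without WT SFIM replicate 2 or slful SFIM replicate 1, and 139 without slful VM replicate 3.

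Same-numbered slful and WT libraries deviated from their group means with correlations from -0.33 to 0.23 over the 12 pairs. The 3 TM pairs were all above 0.1 (0.155 to 0.228), and at each other stage at least 1 pair was below it. The values reported use no pairing by number. With a replicate block within each stage, 369 genes were higher and 145 lower in slful averaged over stages. The stage comparisons used a block by replicate number shared by all stages. With it, among the 40 genes 6 rose and 9 fell between FIM and TM and 9 rose and 11 fell between SFIM and VM.

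A negative binomial count test could not be fitted to RPKM and was not run; voom on recovered reads stood in for it. Depth limits the genes of low level most: the least covered of the 40 had 25 reads in the library where it had fewest.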
